A study of Mus musculus with 12 samples.

Results

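The cochlear libraries of newborn mice were compared between 3 heterozygotes and 3 mutants for Gfi1, 6 of the 12 libraries of the series. Heterozygotes were Gfi1Cre/+;RiboTagHA/HA and mutants were Gfi1Cre/Cre;RiboTagHA/HA, all taken at P0-P1, so that Cre sat at 1 copy of Gfi1 in the first group and at both copies in the second. Both groups carried the RiboTag allele on both copies of Rpl22, and what was sequenced was RNA pulled down with an antibody to the HA tag. The number of Cre copies differed with the genotype, and its effect on the tagged cells and the loss of unmodified Gfi1 cannot be told apart. Of 28342 genes listed for the cochlea, the 17985 that reached 1 CPM in 3 or more of the 6 libraries were tested. CPM, the deposited unit, are the reads of a gene scaled to the same total in every library. The libraries held 7531518 to 9363796 reads each, so that 1 read was worth 0.107 to 0.133 CPM. Changes are mutant minus heterozygote in the mean of log2(CPM + 1), called log2 fold change here, with limma's standard error (SE), and on this scale changes of low genes come out too small. Calls were made in limma where the adjusted p (Benjamini-Hochberg) was under 0.05. The series' own description calls the 3 libraries of a group independent biological replicates, without saying how many animals went into each.

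Gfi1 encodes a zinc finger protein that represses transcription and that hair cells, the sensory receptors of the inner ear, need to mature and survive. Hair cells turn the deflection of a bundle of actin-filled stereocilia into an ion current and pass the signal on at ribbon synapses. Their bundle is oriented by a single true cilium, the kinocilium, which cochlear hair cells keep only early in life. In a RiboTag pull-down, Cre exchanges an exon of the ribosomal protein gene Rpl22 for a tagged version, so that the RNA on ribosomes of cells with a history of Cre is enriched. RNA of other cells remains as background. In bulk libraries of this kind, fewer cells of a type and less RNA per cell cannot be told apart.

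Hair cell markers were looked at first, which does not check the organ label, as no other organ was set beside them. Their 14 genes, all tested, summed to 4751 to 5583 CPM in heterozygotes against 3200.0 to 3763 CPM in mutants. Gfi1, the gene changed by the genotype, is among them. Gfi1 (chromosome 5, 107716657 to 107726036, minus strand on GRCm38) was at 165, 106 and 126 CPM in heterozygotes against 75.1, 64.3 and 69.1 CPM in mutants (log2 fold change -0.90, SE 0.16, adjusted p = 0.00355), with the mutants all below the heterozygotes. Reads were thus still assigned to Gfi1 in each mutant library. Rpl22, the tagged gene, was at 42.1 ± 4.12 CPM in heterozygotes against 42.2 ± 3.01 CPM in mutants and was not called (log2 fold change 0.0033, SE 0.14, adjusted p = 0.998). The first principal component, with 40.6% of the variance, separated the genotypes, and the second, with 23.96%, separated both replicate 3 libraries from the other 4. Both replicate 3 libraries also held less mitochondrially encoded RNA, 33202 and 27144 CPM against 58549 to 78522 CPM in the other 4.

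In the cochlea 341 genes were higher (1.90% of the tested genes) and 453 lower (2.52%) in mutants, 4.41% in all. Each count of a gene family can be read against these shares. Of the higher genes 214, and of the lower ones 241, changed by at least 1 log2 unit. The mutant and heterozygous libraries did not overlap for 793 of the 794 called genes, a pattern that 17.5% of all tested genes had (9.74% with the mutants above and 7.77% with them below). Genes that rose had a median of 15.6 CPM in heterozygotes against 39.97 CPM in mutants, and 35 of them lay under 1 CPM in heterozygotes. Genes that fell started higher, with a median of 52.2 CPM in heterozygotes against 23.2 CPM in mutants, and 36 of them lay under 1 CPM in mutants. A called gene must be measurable in the group where it is high, so this contrast is in part set by the choice of genes. Replicates with the same number deviated together, and with the replicate number as a block the counts were 757 higher (4.21%) and 775 lower (4.31%), 8.52% in all, with all 794 calls among them. Leaving out 1 library at a time kept 416 of the 794 calls in every fit, 345 lost theirs at the threshold in at least 1 fit, and the other 33 were left untested by the level filter in at least 1 fit. The median log2 fold change of all tested genes was 0.05, and 0.01 after either rescaling of the libraries.

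**Figure D1:**
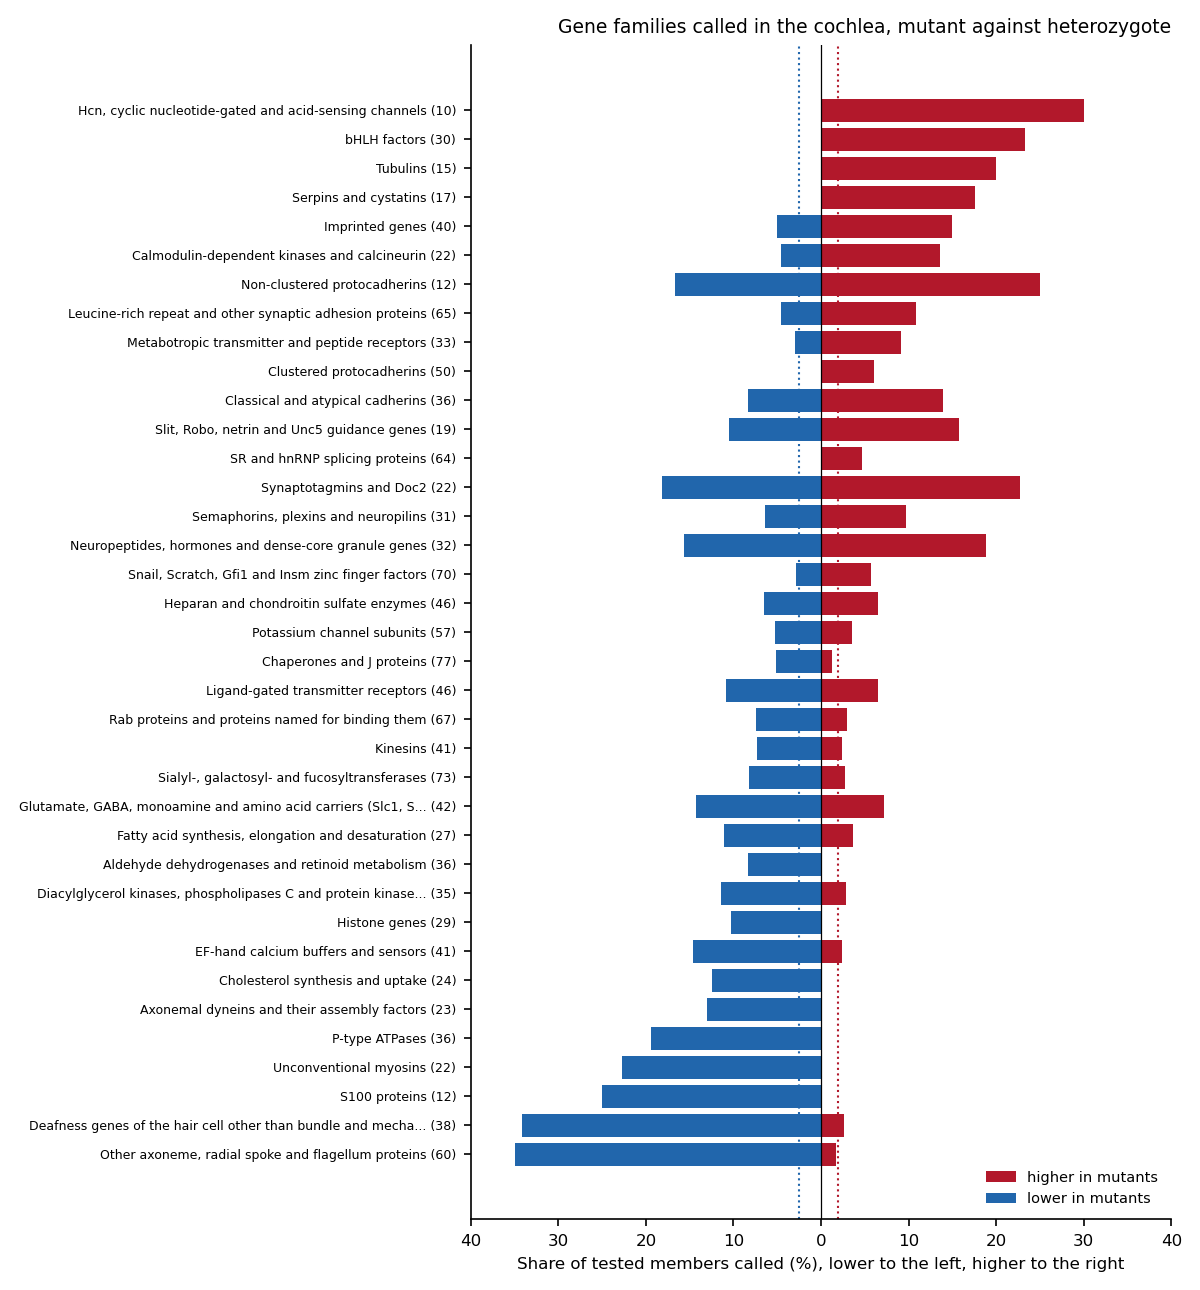
Share of the tested members of each gene family that was called lower (blue, to the left) or higher (red, to the right) in mutants, in percent, with the number of tested members in brackets and dotted lines at the shares over all tested genes (2.52% and 1.90%). The families shown are those with a share at least 2 times that background and at least 3 called members in that direction, and axoneme proteins had 21 of 60 lower.

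Genes of the ciliary axoneme fell in larger share than any other family plotted by share of members called. The axoneme is the microtubule core of a cilium, and the proteins counted here form its radial spokes, central pair and dynein regulatory complex. Of the 60 tested members, 21 fell and 1 rose, with a median log2 fold change of -0.47, against 0.05 over all tested genes (1 higher and 29 lower with the replicate block, 0 higher and 16 lower without both replicate 3 libraries). Cfap206, a radial spoke protein gene (chromosome 4, 34688559 to 34730206, minus strand), was at 88.2, 72.1 and 75.9 CPM in heterozygotes against 11.997, 16.3 and 12.4 CPM in mutants (log2 fold change -2.46, SE 0.16, adjusted p = 1.98e-06). The 3 mutants lay far below the lowest heterozygote and close to each other. Hydin, which encodes a central pair protein (chromosome 8, 110266977 to 110610253, plus strand), was at 67.5, 77.4 and 84.4 CPM in heterozygotes against 21.9, 34.1 and 37.2 CPM in mutants (log2 fold change -1.30, SE 0.19, adjusted p = 0.000793). Drc3, of the dynein regulatory complex (chromosome 11, 60353329 to 60394341, plus strand), was at 43.3, 42.4 and 38.4 CPM in heterozygotes against 14.1, 14.5 and 18.1 CPM in mutants (log2 fold change -1.36, SE 0.16, adjusted p = 0.000189). In both genes, too, the groups did not overlap. Spag6l, another central pair gene, fell from 54.3 ± 5.999 to 24.7 ± 2.83 CPM (log2 fold change -1.11, SE 0.15, adjusted p = 0.000591). Drc7 had a log2 fold change of -1.66, adjusted p = 0.000998, and Wdr63, an inner dynein arm gene, one of -1.62, adjusted p = 0.00106. The member that rose was Stk33, from 8.77 ± 1.34 to 18.3 ± 5.95 CPM (log2 fold change 0.95, SE 0.24, adjusted p = 0.0442), chosen for mention after its values were seen, and its call was lost when heterozygote library 1 or 2 or mutant library 2 or 3 was left out (adjusted p up to 0.227).

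Axonemal dyneins, the motors that bend motile cilia, and the factors that assemble them had fewer calls. Of 23 tested members 3 were called, all lower, with a median of -0.23 (1 higher and 6 lower with the replicate block, 0 higher and 1 lower without both replicate 3 libraries). Dnaic2, an outer dynein arm chain, was at 27.5 ± 2.003 CPM in heterozygotes against 14.7 ± 3.04 CPM in mutants (log2 fold change -0.87, SE 0.19, adjusted p = 0.0139). The call did not hold when heterozygote library 1 or mutant library 1 was left out (adjusted p up to 0.0799). Dnah11, a heavy chain, was at 19.1 ± 4.14 CPM in heterozygotes against 7.67 ± 3.19 CPM in mutants (log2 fold change -1.26, SE 0.27, adjusted p = 0.0168). When heterozygote library 2 or mutant library 1 or 2 was left out, the call was lost (adjusted p up to 0.0807). Foxj1, the transcription factor of motile cilium programmes (chromosome 11, 116330704 to 116335399, minus strand), was at 28.5, 33.6 and 26.5 CPM in heterozygotes against 15.2, 13.3 and 16.2 CPM in mutants (log2 fold change -0.94, SE 0.17, adjusted p = 0.00530), with all mutants below all heterozygotes. Rfx3, a ciliary gene regulator named after its values were seen, was at 358 ± 54.2 CPM in heterozygotes against 332 ± 49.96 CPM in mutants and was not called (log2 fold change -0.11, adjusted p = 0.905). Intraflagellar transport and BBSome genes, which carry cargo along cilia, had 1 of 32 lower and 0 higher, a share near the background, with a median of -0.11 (2 higher and 6 lower with the replicate block, 1 higher and 1 lower without both replicate 3 libraries). Some cilium-related genes that had been named for other families were picked out after their values were seen, and all of those given here fell. The centrosomal protein genes Cep120 and Cep152, which were not picked, were called higher. Dnajb13, a J protein of radial spokes, fell from 10.7 ± 2.77 to 3.36 ± 0.535 CPM (log2 fold change -1.40, SE 0.25, adjusted p = 0.00399). Cetn2, a centrin of centrioles and basal bodies, fell from 93.04 ± 5.201 to 46.9 ± 1.32 CPM (log2 fold change -0.97, SE 0.12, adjusted p = 0.000303). Efcab6, an EF-hand protein gene, fell from 19.9 ± 4.36 to 4.68 ± 1.54 CPM (log2 fold change -1.90, SE 0.26, adjusted p = 0.000520). Rab3ip, an exchange factor for Rab8 in cilium growth, fell from 107 ± 13.2 to 46.7 ± 2.301 CPM (log2 fold change -1.17, SE 0.13, adjusted p = 0.000131). Kif27, a kinesin of motile cilia, fell from 79.4 ± 7.21 to 48.5 ± 2.43 CPM (log2 fold change -0.70, SE 0.13, adjusted p = 0.00577).

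For some of these genes the cochlear change differed from the vestibular one. The difference, cochlea minus vestibule in a single fit of the 12 libraries, was -2.28, adjusted p = 2.34e-05 for Cfap206, where the vestibular change was -0.18. It was -1.72, adjusted p = 0.000526 for Drc7, with a vestibular change of 0.05. For Hydin the difference missed the threshold (-1.54, adjusted p = 0.0598).

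**Figure D2:**
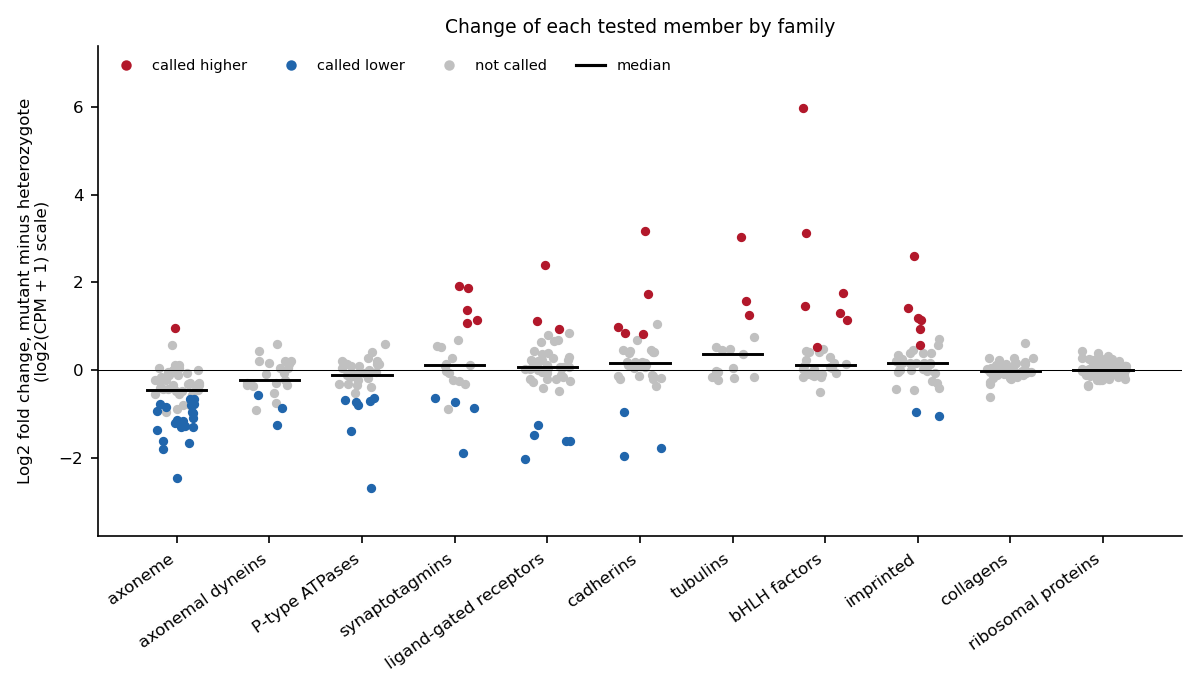
Log2 fold change of every tested member of 11 families, each point a gene (red, called higher; blue, called lower; grey, not called), with the family median as a black line. Axoneme genes lie mostly below 0 (median -0.47), synaptotagmins and cadherins hold calls in both directions, and no collagen or ribosomal protein gene is called.

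Calcium pumps and buffers were among the genes that fell. P-type ATPases pump ions or flip lipids at the expense of ATP, and the plasma membrane calcium pumps among them clear calcium from hair bundles. Of 36 tested members 7 were called, all lower, with a median of -0.11 (1 higher and 12 lower with the replicate block). Atp2a3, which pumps calcium into the endoplasmic reticulum (chromosome 11, 72961169 to 72993044, plus strand), was at 23.8, 14.6 and 21.9996 CPM in heterozygotes against 2.12, 1.29 and 3.47 CPM in mutants (log2 fold change -2.71, SE 0.29, adjusted p = 7.42e-05). The lowest heterozygote was several times above the highest mutant. Its vestibular change was -4.38, and the difference between the organs was 1.67, adjusted p = 0.00854. Atp2b2, the pump of the hair bundle (chromosome 6, 113743831 to 114042613, minus strand), was at 228, 197 and 204 CPM in heterozygotes against 98.4, 146 and 137 CPM in mutants (log2 fold change -0.73, SE 0.15, adjusted p = 0.0108). This call was lost when heterozygote library 1 or mutant library 1 was left out (adjusted p up to 0.0666). Atp2b3, another plasma membrane pump, was at 50.7 ± 5.43 CPM in heterozygotes against 28.98 ± 5.93 CPM in mutants (log2 fold change -0.80, SE 0.17, adjusted p = 0.0139). Its call was lost when heterozygote library 1 or mutant library 1 was left out (adjusted p up to 0.0815). Atp2b1, the most abundant called pump, was at 888 ± 119 CPM in heterozygotes against 567 ± 98.01 CPM in mutants (log2 fold change -0.65, SE 0.16, adjusted p = 0.0324). The call did not hold when heterozygote library 1 or 3 or mutant library 1 or 2 was left out (adjusted p up to 0.151). The copper pump Atp7b was at 9.13 ± 3.56 CPM in heterozygotes against 2.81 ± 0.988 CPM in mutants (log2 fold change -1.39, SE 0.30, adjusted p = 0.0147). When mutant library 1 or 2 was left out, the call was lost (adjusted p up to 0.0812). For Atp2a2, the ubiquitous reticulum pump, named after its values were seen, the level was 432 ± 15.8 CPM in heterozygotes against 344 ± 26.4 CPM in mutants and no call was made (log2 fold change -0.33, adjusted p = 0.202).

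Among EF-hand calcium buffers and sensors 6 of 41 fell and 1 rose, with a median of -0.10 (2 higher and 11 lower with the replicate block). Parvalbumin, Pvalb, a calcium buffer, fell from 77.2 ± 9.76 to 41.01 ± 5.09 CPM (log2 fold change -0.90, SE 0.15, adjusted p = 0.00244), while its vestibular change was 1.56 and the difference between organs -2.45, adjusted p = 1.52e-05. Hpcal1, a neuronal calcium sensor, was the member that rose, from 39.8 ± 6.74 to 67.4 ± 3.77 CPM (log2 fold change 0.76, SE 0.15, adjusted p = 0.00853). S100 proteins are small EF-hand proteins, and 3 of 12 fell, with a median of -0.13. S100a1 fell from 56.4 ± 3.89 to 33.1 ± 1.21 CPM (log2 fold change -0.75, SE 0.14, adjusted p = 0.00448). S100a9, a granulocyte gene, fell from 21.3 ± 5.498 to 2.13 ± 1.71 CPM (log2 fold change -2.95, SE 0.36, adjusted p = 0.000195).

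Synaptotagmins were counted with their relatives named Sytl and Doc2, and some of these proteins tie calcium to vesicle release. The list divided between both directions, with 5 of 22 higher and 4 lower and a median of 0.10. All called members were synaptotagmins. Syt2, a fast calcium sensor of transmitter release (chromosome 1, 134646677 to 134762593, plus strand), was at 52.3, 39.04 and 44.96 CPM in heterozygotes against 9.498, 18.2 and 8.45 CPM in mutants (log2 fold change -1.90, SE 0.24, adjusted p = 0.000322). Syt11 (chromosome 3, 88744700 to 88775164, minus strand) was at 17.4, 17.5 and 26.4 CPM in heterozygotes against 59.1, 122 and 67.6 CPM in mutants (log2 fold change 1.92, SE 0.24, adjusted p = 0.000297), with replicate 2 the highest mutant. The groups did not overlap for either gene. Syt14, an abundant member, fell from 564 ± 93.3 to 309 ± 54.2 CPM (log2 fold change -0.87, SE 0.16, adjusted p = 0.00550). Syt13 fell from 109 ± 5.44 to 65.9 ± 8.61 CPM (log2 fold change -0.72, SE 0.13, adjusted p = 0.00484). Syt4 rose from 14.8 ± 3.65 to 40.4 ± 14.1 CPM (log2 fold change 1.37, SE 0.24, adjusted p = 0.00365). Syt16 rose from 2.15 ± 1.02 to 10.7 ± 5.32 CPM (log2 fold change 1.86, SE 0.34, adjusted p = 0.00495).

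Kinases downstream of calcium and of phospholipase C moved both ways. Among calmodulin-dependent kinases and calcineurin genes 3 of 22 rose and 1 fell, with a median of 0.08. Camk4, a calmodulin-dependent kinase known from neurons (chromosome 18, 32934931 to 33191228, plus strand), was at 63.4, 118 and 90.3 CPM in heterozygotes against 319, 479 and 396 CPM in mutants (log2 fold change 2.15, SE 0.20, adjusted p = 2.59e-05). Camk2b, which encodes a subunit of calmodulin-dependent kinase II, fell from 48.9 ± 6.22 to 18.3 ± 4.57 CPM (log2 fold change -1.39, SE 0.19, adjusted p = 0.000538), so the best measured calls of this family had opposite directions. Among diacylglycerol kinases, phospholipases C and protein kinases C 1 of 35 rose and 4 fell, with a median of 0.11. Dgkk, a diacylglycerol kinase (chromosome X, 6779306 to 6948363, plus strand), was at 6.61, 7.04 and 2.24 CPM in heterozygotes against 40.6, 66.7 and 41.1 CPM in mutants (log2 fold change 3.08, SE 0.32, adjusted p = 6.17e-05). Its vestibular change was larger still, 5.33, and the difference was -2.25, adjusted p = 0.0321. Dgkg, a kinase of the same class, fell from 19.04 ± 3.53 to 5.85 ± 1.47 CPM (log2 fold change -1.56, SE 0.23, adjusted p = 0.000985). The phospholipase C genes Plch2 (log2 fold change -1.13, adjusted p = 0.000207) and Plce1 (-0.67, adjusted p = 0.00464) fell as well.

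**Figure D3:**
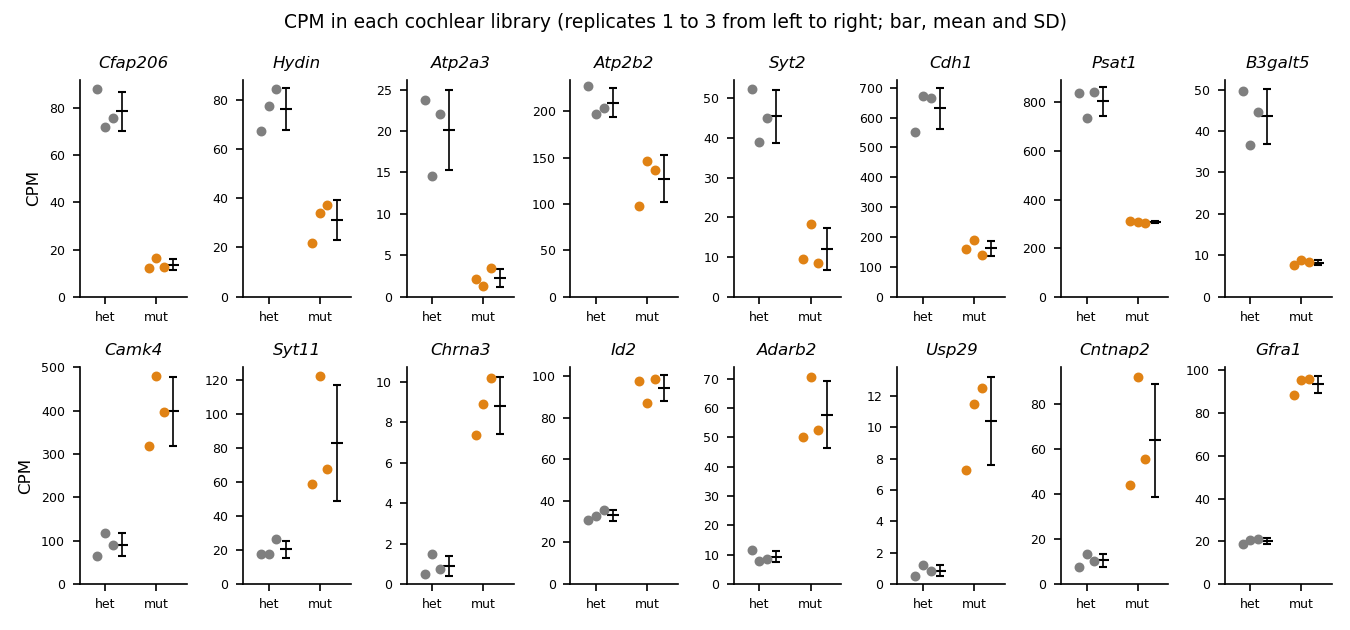
CPM of 16 called genes in each cochlear library, heterozygotes in grey and mutants in orange, replicates 1 to 3 from left to right within a group, with the mean and SD beside them and every axis starting at 0. The upper row holds 8 genes that fell and the lower row 8 that rose, and in each gene the groups do not overlap (Cfap206 at 88.2, 72.1 and 75.9 against 11.997, 16.3 and 12.4 CPM).

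Ion channels, receptors and transmitter carriers had calls in both directions. Among ligand-gated receptors 3 of 46 rose and 5 fell, with a median of 0.06. Nicotinic acetylcholine receptor subunits accounted for the 5 falls. Chrna9, a subunit of the receptor by which efferent nerve fibres inhibit hair cells (chromosome 5, 65934921 to 65977326, plus strand), was at 33.8, 28.5 and 33.6 CPM in heterozygotes against 6.37, 7.74 and 7.18 CPM in mutants (log2 fold change -2.03, SE 0.18, adjusted p = 1.96e-05). Its partner Chrna10 fell from 72.7 ± 15.1 to 22.6 ± 3.503 CPM (log2 fold change -1.63, SE 0.17, adjusted p = 7.75e-05), but it shares over 30% of its exon bases with another gene, which leaves its count uncertain. Chrng, the gamma subunit of the fetal muscle-type receptor, fell from 26.2 ± 7.08 to 8.59 ± 1.77 CPM (log2 fold change -1.49, SE 0.23, adjusted p = 0.00158). Chrna1, the alpha subunit of that receptor, was at 42.4 ± 13.4 CPM in heterozygotes against 14.5 ± 7.96 CPM in mutants (log2 fold change -1.63, SE 0.37, adjusted p = 0.0216). This call was lost when heterozygote library 1 was left out (adjusted p up to 0.143). Chrnb4 fell from 18.2 ± 2.21 to 7.09 ± 1.24 CPM (log2 fold change -1.25, SE 0.21, adjusted p = 0.00244). Chrna3, the usual partner of Chrnb4 in autonomic ganglia (chromosome 9, 55010111 to 55026562, minus strand), went the other way, at 0.508, 1.46 and 0.748 CPM in heterozygotes against 7.37, 8.904 and 10.2 CPM in mutants (log2 fold change 2.39, SE 0.27, adjusted p = 0.000120). P2rx3, an ATP receptor of sensory neurons, was at 48.5 ± 13.5 CPM in heterozygotes against 106 ± 33.3 CPM in mutants (log2 fold change 1.11, SE 0.23, adjusted p = 0.0116). Its call was lost when heterozygote library 1 or mutant library 2 was left out (adjusted p up to 0.0752).

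Of 57 potassium channel genes 3 fell and 2 rose, with a median of -0.06 (4 higher and 5 lower with the replicate block). Kcna10, a channel known from hair cells (chromosome 3, 107183056 to 107195721, plus strand), was at 42.9, 36.4 and 29.9 CPM in heterozygotes against 3.25, 1.81 and 3.47 CPM in mutants (log2 fold change -3.30, SE 0.24, adjusted p = 3.54e-06). Its groups lay far apart. Kcnh2 fell from 22.2 ± 1.85 to 9.15 ± 1.11 CPM (log2 fold change -1.20, SE 0.19, adjusted p = 0.00161). Of 10 Hcn, cyclic nucleotide-gated and acid-sensing channel genes 3 were called, all higher, with a median of 0.20 (1 higher and 0 lower without both replicate 3 libraries). Scnn1a, a subunit of the epithelial sodium channel, was at 1.38 ± 1.04 CPM in heterozygotes against 4.62 ± 0.864 CPM in mutants (log2 fold change 1.32, SE 0.31, adjusted p = 0.0271). The call did not hold when heterozygote library 1 or 2 or mutant library 1 or 2 was left out (adjusted p up to 0.145).

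Among other channels, the sodium channel gene Scn9a of sensory neurons rose from 41.99 ± 11.4 to 135 ± 14.6 CPM (log2 fold change 1.69, SE 0.19, adjusted p = 9.48e-05) while the beta subunit Scn3b fell from 88.5 ± 4.24 to 29.7 ± 9.69 CPM (log2 fold change -1.58, SE 0.19, adjusted p = 0.000170). Cacna2d1, an auxiliary calcium channel subunit, rose from 126 ± 8.198 to 311 ± 54.8 CPM (log2 fold change 1.28, SE 0.14, adjusted p = 8.27e-05). Cacng2, which escorts AMPA receptors, fell from 13.9 ± 2.92 to 2.605 ± 0.666 CPM (log2 fold change -2.04, SE 0.25, adjusted p = 0.000210). Gjd2, the connexin of electrical synapses between neurons, rose from 0.979 ± 0.606 to 11.1 ± 5.12 CPM (log2 fold change 2.59, SE 0.33, adjusted p = 0.000297). Mcoln3, a TRP channel of hair cell vesicles, fell from 168 ± 26.6 to 75.4 ± 1.89 CPM (log2 fold change -1.13, SE 0.14, adjusted p = 0.000201).

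Carriers of glutamate, GABA, monoamines and amino acids numbered 42 tested genes, of which 3 rose and 6 fell, with a median of 0.0018. Vesicular glutamate transporters divided by isoform. Slc17a6, the isoform of many brain and sensory neurons (chromosome 7, 51622006 to 51671119, plus strand), was at 7.24, 12.9 and 8.01 CPM in heterozygotes against 70.4, 136 and 70.5 CPM in mutants (log2 fold change 3.14, SE 0.26, adjusted p = 9.54e-06). Slc17a8, the isoform that fills vesicles of inner hair cells (chromosome 10, 89574020 to 89621253, minus strand), was at 83.1, 61.3 and 81.8 CPM in heterozygotes against 33.7, 35.9 and 42.6 CPM in mutants (log2 fold change -0.99, SE 0.16, adjusted p = 0.00177). Slc17a7, the main isoform of spiral ganglion neurons, was at 1.67 ± 0.182 CPM in heterozygotes against 5.05 ± 1.16 CPM in mutants (log2 fold change 1.17, SE 0.25, adjusted p = 0.0165). When heterozygote library 1 or mutant library 2 or 3 was left out, the call was lost (adjusted p up to 0.0918). Slc17a7 lies 206 bases from Gfy, which rose from 0.425 ± 0.625 to 89.3 ± 44.05 CPM. Whether reads from Gfy were counted for Slc17a7 was not tested, and the strand setting of the counting is not given. Slc7a14 fell from 159 ± 34.5 to 76.5 ± 12.6 CPM (log2 fold change -1.03, SE 0.17, adjusted p = 0.00194). Slc6a17, a vesicular amino acid carrier, fell from 122.6 ± 8.12 to 68.8 ± 7.29 CPM (log2 fold change -0.83, SE 0.13, adjusted p = 0.00155). Among 33 metabotropic receptors 3 rose and 1 fell, with a median of 0.01 (1 higher and 0 lower without both replicate 3 libraries). Adrb1, a beta adrenoceptor, rose from 0.747 ± 0.289 to 3.46 ± 0.717 CPM (log2 fold change 1.35, SE 0.26, adjusted p = 0.00757). Gabbr2, a subunit of the GABA-B receptor, was at 4.505 ± 2.63 CPM in heterozygotes against 16.4 ± 5.01 CPM in mutants (log2 fold change 1.76, SE 0.35, adjusted p = 0.00828). This call was lost when mutant library 2 was left out (adjusted p up to 0.0694).

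Motors and filaments separated by kind. Unconventional myosins, the actin motors that carry cargo in stereocilia, had 5 of 22 called, all lower, with a median of -0.15. Myo3b (chromosome 2, 70039126 to 70429198, plus strand), a myosin of stereocilia tips, was at 207, 150.2 and 165 CPM in heterozygotes against 56.99, 63.6 and 74.1 CPM in mutants (log2 fold change -1.40, SE 0.15, adjusted p = 7.55e-05). Myo15 fell from 48.7 ± 7.29 to 16.01 ± 4.96 CPM (log2 fold change -1.58, SE 0.22, adjusted p = 0.000563). Myo3a fell from 227 ± 35.3 to 81.9 ± 6.26 CPM (log2 fold change -1.45, SE 0.14, adjusted p = 2.89e-05). Myo1h, a short-tailed myosin at low levels, fell from 6.04 ± 1.28 to 1.64 ± 0.416 CPM (log2 fold change -1.41, SE 0.26, adjusted p = 0.00531). Tubulins, in contrast, had 3 of 15 called, all higher, with a median of 0.37 (5 higher and 0 lower with the replicate block). Tubb3, the beta tubulin of neurons (chromosome 8, 123411424 to 123422015, plus strand), was at 2.79, 3.58 and 4.49 CPM in heterozygotes against 18.996, 70.1 and 35.7 CPM in mutants (log2 fold change 3.03, SE 0.36, adjusted p = 0.000168). Tuba1a (chromosome 15, 98949837 to 98953703, minus strand), an alpha tubulin of developing neurons, was at 398, 437 and 418 CPM in heterozygotes against 806, 1343 and 931 CPM in mutants (log2 fold change 1.26, SE 0.17, adjusted p = 0.000492). Tubb2b rose from 44.1 ± 5.08 to 134 ± 34.3 CPM (log2 fold change 1.56, SE 0.18, adjusted p = 0.000120). All mutants lay above all heterozygotes in these 3 genes. Of 41 kinesins 1 rose and 3 fell, with a median of 0.03 (2 higher and 6 lower with the replicate block). Kif5c, a neuronal conventional kinesin, was the one that rose, from 207 ± 20.02 to 401 ± 90.6 CPM (log2 fold change 0.93, SE 0.16, adjusted p = 0.00258). The intermediate filament genes Nefm (from 509.8 ± 32.9 to 895 ± 98.3 CPM, log2 fold change 0.81, SE 0.13, adjusted p = 0.00228) and Ina (from 44.1 ± 1.27 to 130.3 ± 47.8 CPM, log2 fold change 1.48, SE 0.20, adjusted p = 0.000470), both of neurons, rose too.

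Cell adhesion families had calls in both directions. Of 36 classical and atypical cadherins 5 rose and 3 fell, with a median of 0.15. Cdh1, the cadherin of epithelia (chromosome 8, 106603351 to 106670246, plus strand), was at 553, 674 and 665 CPM in heterozygotes against 159.6, 189 and 139 CPM in mutants (log2 fold change -1.96, SE 0.14, adjusted p = 3.54e-06). Cdh2, the cadherin of neural tissue (chromosome 18, 16588877 to 16809246, minus strand), was at 145, 129 and 127 CPM in heterozygotes against 205, 293 and 229.5 CPM in mutants (log2 fold change 0.84, SE 0.14, adjusted p = 0.00291). For both genes the groups did not overlap, with mutants low in the first and high in the second. Cdh23, a tip link protein, fell from 217 ± 62.7 to 61.1 ± 8.23 CPM (log2 fold change -1.77, SE 0.19, adjusted p = 8.56e-05). Celsr1, a planar polarity cadherin, fell from 93.7 ± 7.89 to 47.7 ± 8.28 CPM (log2 fold change -0.97, SE 0.15, adjusted p = 0.00123). Cdhr1, known from photoreceptors, rose from 3.66 ± 1.19 to 46.5 ± 33.1 CPM (log2 fold change 3.16, SE 0.38, adjusted p = 0.000184). Cdh7 rose from 4.81 ± 1.66 to 17.9 ± 3.88 CPM (log2 fold change 1.72, SE 0.26, adjusted p = 0.00131). Among 12 non-clustered protocadherins 3 rose and 2 fell, with a median of 0.09. Pcdh17 rose from 23.97 ± 1.93 to 64.2 ± 12.5 CPM (log2 fold change 1.37, SE 0.16, adjusted p = 0.000176). Pcdh15, the other tip link protein, fell from 330.2 ± 46.4 to 199 ± 16.6 CPM (log2 fold change -0.72, SE 0.13, adjusted p = 0.00558). Of 50 clustered protocadherins 3 were called, all higher, with a median of 0.28 (6 higher and 0 lower with the replicate block). These genes share their last exons, so that their counts are uncertain.

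Leucine-rich repeat and other synaptic adhesion proteins had 7 of 65 higher and 3 lower, with a median of 0.03. Elfn1, which gathers glutamate receptors across a synapse (chromosome 5, 139907943 to 139974722, plus strand), was at 28.1, 28.9 and 26.4 CPM in heterozygotes against 1.12, 1.94 and 1.39 CPM in mutants (log2 fold change -3.55, SE 0.22, adjusted p = 1.47e-06). Its relative Elfn2 fell from 10.1 ± 2.82 to 1.32 ± 0.468 CPM (log2 fold change -2.25, SE 0.27, adjusted p = 0.000206). Nrxn3, a presynaptic adhesion protein (chromosome 12, 88722876 to 90334935, plus strand) was at 392, 326 and 329 CPM in heterozygotes against 146, 147 and 132 CPM in mutants (log2 fold change -1.29, SE 0.12, adjusted p = 2.77e-05). All its mutant libraries lay below all heterozygous ones. Cntnap2, a neurexin relative of axons, rose from 10.4 ± 2.97 to 64.03 ± 25.1 CPM (log2 fold change 2.47, SE 0.26, adjusted p = 6.53e-05). Lrrtm4 rose from 11.3 ± 2.33 to 27.7 ± 3.31 CPM (log2 fold change 1.23, SE 0.19, adjusted p = 0.00167). Axon guidance genes were counted next. Of 31 semaphorins, plexins and neuropilins 3 rose and 2 fell (median 0.10) (5 higher and 3 lower with the replicate block), with Sema5b falling from 330.1 ± 10.7 to 115 ± 13.2 CPM (log2 fold change -1.52, SE 0.12, adjusted p = 7.57e-06) and Sema3c rising from 35.3 ± 3.41 to 63.99 ± 1.102 CPM (log2 fold change 0.84, SE 0.14, adjusted p = 0.00187). Of 19 Slit, Robo, netrin and Unc5 genes 3 rose and 2 fell (median -0.0014). Unc5a, a netrin receptor, fell from 14.2 ± 1.48 to 5.37 ± 1.42 CPM (log2 fold change -1.28, SE 0.24, adjusted p = 0.00511). The netrin receptor Neo1, an abundant gene, was at 385 ± 22.7 CPM in heterozygotes against 617 ± 84.9 CPM in mutants (log2 fold change 0.67, SE 0.13, adjusted p = 0.00884). Its call was lost when heterozygote library 2 was left out (adjusted p up to 0.0503).

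Secreted peptides and their processing had 6 of 32 genes higher and 5 lower, with a median of 0.14 (9 higher and 8 lower with the replicate block). Npy, a neuropeptide (chromosome 6, 49822710 to 49829507, plus strand), was at 4.06, 3.58 and 5.23 CPM in heterozygotes against 21.1, 41.9 and 23.5 CPM in mutants (log2 fold change 2.44, SE 0.26, adjusted p = 7.96e-05). Cadps, which primes dense-core vesicles, rose from 38.3 ± 2.3003 to 120.2 ± 20.8 CPM (log2 fold change 1.61, SE 0.14, adjusted p = 1.77e-05). Sez6, a neuronal membrane protein gene, rose from 2.16 ± 0.814 to 9.27 ± 1.05 CPM (log2 fold change 1.73, SE 0.26, adjusted p = 0.00107). Pcsk1, a prohormone convertase (chromosome 13, 75089826 to 75134861, plus strand), was at 12.8, 10.6 and 14.2 CPM in heterozygotes against 1.75, 3.48 and 0.695 CPM in mutants (log2 fold change -2.29, SE 0.32, adjusted p = 0.000683). Tac4, a tachykinin, fell from 10.3 ± 4.64 to 1.97 ± 0.191 CPM (log2 fold change -1.85, SE 0.29, adjusted p = 0.00154). Npy and Pcsk1 thus moved apart, and for each the groups did not overlap, while Tac4, also a peptide, fell as Pcsk1 did. Of 17 serpins and cystatins, inhibitors of proteases, 3 were called, all higher, with a median of 0.05 (4 higher and 1 lower with the replicate block). Serpini1, neuroserpin, rose from 7.45 ± 2.44 to 23.9 ± 9.16 CPM (log2 fold change 1.54, SE 0.28, adjusted p = 0.00469). Serpine3 rose from 17.7 ± 1.12 to 39.4 ± 2.62 CPM (log2 fold change 1.11, SE 0.15, adjusted p = 0.000597).

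Receptors and signalling genes of smaller families were called as well. Gfra1, a receptor for GDNF (chromosome 19, 58235604 to 58455909, minus strand), was at 18.5, 20.7 and 21.3 CPM in heterozygotes against 88.7, 95.6 and 96.01 CPM in mutants (log2 fold change 2.16, SE 0.14, adjusted p = 1.47e-06). Dll3, an inhibitory Notch ligand, fell from 11.3 ± 1.05 to 2.53 ± 0.824 CPM (log2 fold change -1.83, SE 0.25, adjusted p = 0.000586). Dner, a neuronal Notch ligand, rose from 26.9 ± 1.51 to 64.6 ± 16.6 CPM (log2 fold change 1.21, SE 0.17, adjusted p = 0.000811). Smad9, a BMP signal transducer, rose from 7.78 ± 3.05 to 32.5 ± 6.24 CPM (log2 fold change 1.97, SE 0.25, adjusted p = 0.000322). The receptor gene Acvr1c fell from 7.38 ± 2.15 to 1.07 ± 0.174 CPM (log2 fold change -1.99, SE 0.27, adjusted p = 0.000480). Id2, an inhibitor of bHLH factors, was at 30.6, 32.7 and 35.7 CPM in heterozygotes against 97.7, 87.1 and 98.4 CPM in mutants (log2 fold change 1.49, SE 0.13, adjusted p = 1.73e-05), clear of overlap.

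Basic helix-loop-helix (bHLH) transcription factors include several that set neuronal fates. Of 30 tested genes matched by symbol 7 were called, all higher, with a median of 0.11. The match took in Hif1an and Bhlhb9, which are not bHLH factors and were not called. No Hes or Hey gene was among the tested members of this list. Neurod1, a neuronal factor, was at 1.78, 0.664 and 0.107 CPM in heterozygotes against 83.5, 180.02 and 82.6 CPM in mutants (log2 fold change 5.98, SE 0.35, adjusted p = 6.65e-07). Nhlh2 (chromosome 3, 102010076 to 102015492, plus strand) was at 0.254, 1.06 and 0.214 CPM in heterozygotes against 8.75, 19.9 and 9.15 CPM in mutants (log2 fold change 3.12, SE 0.34, adjusted p = 8.08e-05). Mycn rose from 11.9 ± 1.67 to 30.5 ± 3.22 CPM (log2 fold change 1.29, SE 0.18, adjusted p = 0.000644). Each of the 3 mutants lay above each heterozygote for these genes, and for the first 2 the heterozygotes were at low levels. Among 70 zinc finger factors matched by the names Snail, Scratch, Gfi1, Insm and their relatives, 4 rose and 2 fell, with a median of 0.09. Gfi1 itself, the gene changed by the genotype, was among those that fell. Insm2 rose from 3.29 ± 1.06 to 13.7 ± 2.27 CPM (log2 fold change 1.80, SE 0.26, adjusted p = 0.000722). Bcl11b, a factor of outer hair cells, was at 38.4 ± 2.74 CPM in heterozygotes against 15.1 ± 9.39 CPM in mutants (log2 fold change -1.44, SE 0.29, adjusted p = 0.0103). The call did not hold when heterozygote library 1 or 2 or mutant library 1 was left out (adjusted p up to 0.0594). Homeodomain genes that were near 0 in heterozygotes included Pou3f1 at 0.381, 0.797 and 0.107 CPM in heterozygotes against 8.87, 18.1 and 10.3 CPM in mutants, Pitx1 at 0, 0.133 and 0.214 CPM in heterozygotes against 8.498, 13.7 and 10.4 CPM in mutants and Six3 at 0.762, 0.664 and 0.214 CPM in heterozygotes against 7.87, 24.1 and 8.802 CPM in mutants. All 3 rose, by log2 fold changes of 3.20 (SE 0.31), 3.39 (SE 0.26) and 3.09 (SE 0.36). Without any single mutant library these 3 genes no longer reached the level filter and could not be tested. Six3os1 lies on the opposite strand over the start of Six3 and rose with it (log2 fold change 2.53, adjusted p = 0.000490). The 2 genes share 5.03% and 10.8% of their exon bases, and reads from the shared part cannot be assigned to a strand, as the sources used here do not give the strand setting of the counting.

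RNA-binding proteins, histones and imprinted genes were counted next. Of 64 splicing and RNA-binding proteins 3 were called, all higher, with a median of 0.05 (6 higher and 0 lower with the replicate block). Among the called ones were RNA-binding proteins of neurons, with Elavl3 rising from 9.42 ± 2.76 to 36.6 ± 14.4 CPM (log2 fold change 1.82, SE 0.27, adjusted p = 0.000996) and Elavl4 rising from 37.9 ± 9.39 to 89.8 ± 29.1 CPM (log2 fold change 1.21, SE 0.22, adjusted p = 0.00497). Adarb2, a brain relative of the RNA-editing enzymes (chromosome 13, 8202866 to 8768747, plus strand), was at 11.4, 7.83 and 8.44 CPM in heterozygotes against 49.99, 70.7 and 52.5 CPM in mutants (log2 fold change 2.52, SE 0.19, adjusted p = 5.14e-06), with no overlap. Of 29 histone genes 3 were called, all lower, with a median of -0.03 (1 higher and 4 lower with the replicate block). Hist1h2bc fell from 13.99 ± 2.89 to 4.59 ± 1.49 CPM (log2 fold change -1.44, SE 0.26, adjusted p = 0.00406). Imprinted genes, which are read from the copy of 1 parent, had 6 of 40 higher and 2 lower, with a median of 0.16. Usp29 (chromosome 7, 6730578 to 6967219, plus strand), a deubiquitinase gene, was at 0.508, 1.19 and 0.854 CPM in heterozygotes against 7.25, 11.5 and 12.5 CPM in mutants (log2 fold change 2.61, SE 0.28, adjusted p = 7.60e-05). Plagl1, a zinc finger growth regulator (chromosome 10, 13060504 to 13131694, plus strand), was at 36.3, 33.7 and 34.1 CPM in heterozygotes against 81.4, 121 and 85.01 CPM in mutants (log2 fold change 1.42, SE 0.16, adjusted p = 0.000115). Ndn, a gene of postmitotic neurons, rose from 9.69 ± 2.32 to 23.01 ± 0.823 CPM (log2 fold change 1.19, SE 0.21, adjusted p = 0.00319). Zdbf2 rose from 63.5 ± 16.5 to 119 ± 6.996 CPM (log2 fold change 0.93, SE 0.17, adjusted p = 0.00463). Peg10 fell from 73.6 ± 7.87 to 37.7 ± 5.95 CPM (log2 fold change -0.96, SE 0.15, adjusted p = 0.00187), so that imprinted genes did not share 1 direction.

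Of 19 genes of serine, glycine and one-carbon synthesis 2 fell and 0 rose, with a median of 0.09. Of 30 genes of glycolysis and lactate 2 fell and 0 rose, with a median of -0.0016 (0 higher and 4 lower with the replicate block), and as many members lay above 0 as below. Psat1, an enzyme of serine synthesis (chromosome 19, 15904678 to 15947337, minus strand), was at 837, 737 and 841 CPM in heterozygotes against 313, 306 and 305 CPM in mutants (log2 fold change -1.38, SE 0.12, adjusted p = 1.49e-05), among the most abundant called genes and with the mutants within a narrow range. Psph, the last enzyme of that pathway, fell from 124 ± 30.01 to 65.6 ± 1.46 CPM (log2 fold change -0.88, SE 0.17, adjusted p = 0.00637). Phgdh, the first enzyme, named after its values were seen, was at 36.01 ± 4.696 CPM in heterozygotes against 25.1 ± 3.55 CPM in mutants and was not called (log2 fold change -0.51, adjusted p = 0.142). The vestibular change of Psat1 was 1.07, and the difference between the organs was -2.45, adjusted p = 1.38e-05. Pgam2, the muscle form of phosphoglycerate mutase (chromosome 11, 5801640 to 5803733, minus strand), was at 35.9, 24.8 and 29.2 CPM in heterozygotes against 3.75, 3.23 and 3.13 CPM in mutants (log2 fold change -2.81, SE 0.21, adjusted p = 5.14e-06). Aldoa, another glycolytic enzyme, fell from 111 ± 8.15 to 62.996 ± 2.12 CPM (log2 fold change -0.81, SE 0.12, adjusted p = 0.00122). The brain creatine kinase Ckb fell from 224 ± 7.52 to 142 ± 10.1 CPM (log2 fold change -0.66, SE 0.12, adjusted p = 0.00362). Ak9, an adenylate kinase, fell from 21.2 ± 3.89 to 5.54 ± 0.302 CPM (log2 fold change -1.75, SE 0.21, adjusted p = 0.000178). Gstm7, a glutathione transferase, fell from 57.3 ± 22.98 to 11.4 ± 2.74 CPM (log2 fold change -2.19, SE 0.26, adjusted p = 0.000178).

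Of 24 genes of cholesterol synthesis and uptake 3 were called, all lower, with a median of -0.19 (0 higher and 5 lower with the replicate block, 0 higher and 1 lower without both replicate 3 libraries). Hsd17b7, a late enzyme of the pathway (chromosome 1, 169949535 to 169969241, minus strand), was at 170.5, 106 and 116 CPM in heterozygotes against 56.6, 59.9 and 55.6 CPM in mutants (log2 fold change -1.15, SE 0.16, adjusted p = 0.000790). Of 27 genes of fatty acid synthesis and elongation 3 fell and 1 rose, with a median of 0.09 (4 higher and 6 lower with the replicate block). Me1, the malic enzyme that supplies NADPH, fell from 65.2 ± 11.5 to 23.8 ± 3.99 CPM (log2 fold change -1.42, SE 0.17, adjusted p = 0.000195). Acsl4, which activates long fatty acids, fell from 323 ± 45.5 to 153 ± 6.28 CPM (log2 fold change -1.07, SE 0.13, adjusted p = 0.000197). Of 36 genes of retinoid and aldehyde metabolism 3 were called, all lower, with a median of 0.06 (2 higher and 3 lower with the replicate block). Stra6, the receptor through which cells take up retinol (chromosome 9, 58063788 to 58153996, plus strand), was at 64.7, 38.6 and 38.7 CPM in heterozygotes against 9.37, 15.1 and 10.8 CPM in mutants (log2 fold change -1.90, SE 0.23, adjusted p = 0.000193). The groups lay well apart for Hsd17b7 and Stra6.

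Enzymes that build sugar chains changed in both directions. Of 73 sialyl-, galactosyl- and fucosyltransferases and related enzymes 2 rose and 6 fell, with a median of 0.02. B3galt5, a galactosyltransferase (chromosome 16, 96235801 to 96319859, plus strand), was at 49.7, 36.5 and 44.5 CPM in heterozygotes against 7.62, 8.78 and 8.34 CPM in mutants (log2 fold change -2.26, SE 0.18, adjusted p = 6.69e-06). Galnt5, which starts O-linked chains (chromosome 2, 57997884 to 58045860, plus strand), was at 44.2, 18.1 and 29.6 CPM in heterozygotes against 109, 115 and 112 CPM in mutants (log2 fold change 1.92, SE 0.23, adjusted p = 0.000210). The groups did not overlap for either enzyme. St3gal5, which makes the ganglioside GM3, fell from 113 ± 16.4 to 63.7 ± 0.902 CPM (log2 fold change -0.81, SE 0.13, adjusted p = 0.00222). Gcnt2, a branching enzyme, fell from 64.5 ± 10.5 to 34.4 ± 1.26 CPM (log2 fold change -0.87, SE 0.15, adjusted p = 0.00296). Among 46 genes listed as heparan and chondroitin sulfate enzymes 3 rose and 3 fell, with a median of 0.09 (5 higher and 5 lower with the replicate block). The list takes in sulfotransferases that act on other sugar chains, among them Chst8 and Chst4. Chst13, a chondroitin sulfotransferase, fell from 8.70 ± 0.503 to 0.196 ± 0.240 CPM (log2 fold change -3.04, SE 0.26, adjusted p = 1.16e-05). Without any single heterozygous library Chst13 could not be tested. Chst8, a sulfotransferase, rose from 1.11 ± 0.389 to 8.64 ± 2.65 CPM (log2 fold change 2.17, SE 0.29, adjusted p = 0.000415), while its relative Chst4 fell from 10.3 ± 1.52 to 2.29 ± 0.853 CPM (log2 fold change -1.80, SE 0.26, adjusted p = 0.000972).

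Chaperones and J proteins had 4 of 77 lower and 1 higher, with a median of -0.05 (5 higher and 9 lower with the replicate block). Hspa4l (chromosome 3, 40744495 to 40796103, plus strand), a relative of Hsp110, was at 489, 391 and 419 CPM in heterozygotes against 205, 163 and 186 CPM in mutants (log2 fold change -1.23, SE 0.13, adjusted p = 8.66e-05), and Hsph1, Hsp110 itself, fell from 282 ± 35.6 to 166 ± 19.9 CPM (log2 fold change -0.76, SE 0.14, adjusted p = 0.00423). Dnajc6, auxilin, which strips clathrin from vesicles in neurons, rose from 17.2 ± 0.972 to 58.8 ± 9.43 CPM (log2 fold change 1.71, SE 0.16, adjusted p = 2.59e-05). Of 67 Rab proteins and proteins named for binding them 5 fell and 2 rose, with a median of 0.08. Rab37 fell from 16.7 ± 4.07 to 3.56 ± 2.02 CPM (log2 fold change -2.02, SE 0.31, adjusted p = 0.00130). Rab15 fell from 97.7 ± 7.14 to 57.003 ± 3.86 CPM (log2 fold change -0.77, SE 0.13, adjusted p = 0.00236). Of 158 F-box, cullin and Trim genes of ubiquitin ligases 4 rose and 2 fell, near the background, with a median of 0.09 (13 higher and 5 lower with the replicate block). Fbxo2, an F-box protein of the inner ear that tags glycoproteins for removal, fell from 75.6 ± 9.24 to 32.8 ± 3.15 CPM (log2 fold change -1.18, SE 0.15, adjusted p = 0.000231). Trim36, a ubiquitin ligase, fell from 192 ± 38.7 to 90.96 ± 4.37 CPM (log2 fold change -1.05, SE 0.15, adjusted p = 0.000597).

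Genes of inherited deafness that act in hair cells, other than those of the bundle and its transduction channel, were counted as a list. Of 38 tested members 13 fell and 1 rose, with a median of -0.18 (2 higher and 16 lower with the replicate block, 1 higher and 13 lower without both replicate 3 libraries). Msrb3, which repairs oxidized methionine (chromosome 10, 120781096 to 120899101, minus strand), was at 321, 234 and 254 CPM in heterozygotes against 90.9, 79.2 and 89.5 CPM in mutants (log2 fold change -1.62, SE 0.14, adjusted p = 1.28e-05). Gipc3, a scaffold protein of hair cells, fell from 15.1 ± 2.54 to 2.53 ± 0.834 CPM (log2 fold change -2.20, SE 0.25, adjusted p = 0.000131), and Pjvk, pejvakin, fell from 45.9 ± 14.6 to 10.7 ± 1.97 CPM (log2 fold change -1.97, SE 0.23, adjusted p = 0.000157). Slc26a5, prestin, by which outer hair cells change their length (chromosome 5, 21810655 to 21865604, minus strand), was at 24.01, 13.3 and 17.1 CPM in heterozygotes against 1.4997, 0.129 and 1.04 CPM in mutants (log2 fold change -3.38, SE 0.32, adjusted p = 2.84e-05). For Msrb3 the difference from the vestibular change was -1.92, adjusted p = 3.60e-05, with 0.30 in the vestibule. Levels of the groups did not overlap for these genes. Ptprq, a membrane phosphatase of stereocilia and one of the most abundant called genes, fell from 1404 ± 209 to 728 ± 108 CPM (log2 fold change -0.95, SE 0.16, adjusted p = 0.00288).

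**Figure D4:**
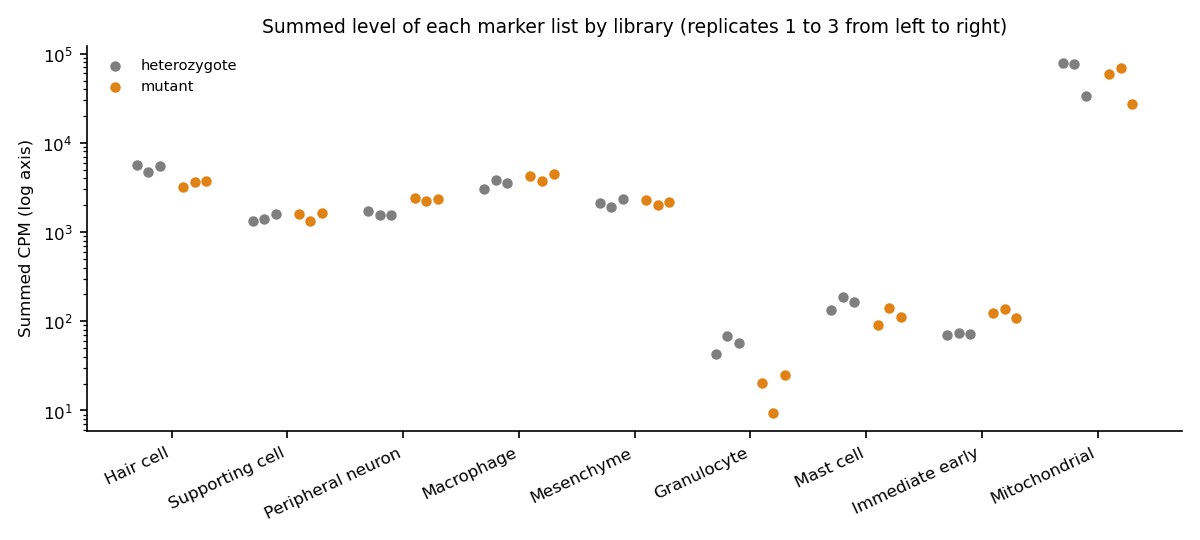
Summed CPM of each list of cell markers in each cochlear library on a log axis, heterozygotes in grey and mutants in orange, replicates 1 to 3 from left to right. Hair cell sums were lower in all mutants (4751 to 5583 CPM against 3200.0 to 3763 CPM), peripheral neuron sums higher (1536 to 1719 CPM against 2207 to 2395 CPM), and supporting cell sums overlapped.

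Markers of other cell types were summed beside these results. The peripheral neuron list of 16 genes, 14 of them tested, summed to 1536 to 1719 CPM in heterozygotes against 2207 to 2395 CPM in mutants, with 5 members called, all higher (7 higher and 1 lower with the replicate block). Snap25, a protein of vesicle fusion, rose from 108 ± 5.95 to 183 ± 15.9 CPM (log2 fold change 0.75, SE 0.12, adjusted p = 0.00187). Slc17a7, which lies next to Gfy, was also among those called. Not all listed markers were called. Calb2, a calcium-binding protein named after its values were seen, was at 47.001, 22.04 and 21.8 CPM in heterozygotes against 14.6, 11.9 and 16.8 CPM in mutants (log2 fold change -0.94, adjusted p = 0.0703), and it was called lower with the replicate block (adjusted p = 0.00204) and without both replicate 3 libraries (adjusted p = 0.0110). Prph was at 2.301 ± 1.31 CPM in heterozygotes against 1.401 ± 0.658 CPM in mutants, Isl1 at 265 ± 9.64 CPM in heterozygotes against 308 ± 30.7 CPM in mutants and Ntrk3 at 35.2 ± 15.4 CPM in heterozygotes against 53.4 ± 13.7 CPM in mutants, none of them called (adjusted p 0.765, 0.557 and 0.285), and Th did not reach the level filter. Schwann and satellite glia, which accompany such neurons, had none of 12 markers called in limma, with 0 at an unadjusted p under 0.05, 0 in edgeR and 0 in DESeq2, and sums of 239 to 328 CPM and 269 to 316 CPM. The part of other cells in the rises of neuronal genes was not tested.

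Granulocyte markers were called too. Of 12 listed genes 8 were tested and 5 fell (0 higher and 1 lower without both replicate 3 libraries), and the list summed to 43.1 to 68.2 CPM in heterozygotes against 9.29 to 25.2 CPM in mutants. S100a9 was at 15.1, 25.6 and 23.2 CPM in heterozygotes against 3.999, 0.645 and 1.74 CPM in mutants. Genes of such cells among the largest falls included Stfa2l1, a stefin (from 13.5 ± 1.86 to 2.08 ± 1.49 CPM, log2 fold change -2.36, adjusted p = 0.000916). Mast cell markers had 2 of 6 lower, with sums of 133 to 187 CPM and 91.2 to 142 CPM, which overlap. Macrophage markers had 2 of 19 higher, with sums of 3044 to 3853 CPM and 3747 to 4465 CPM. Supporting cell markers had 1 of 16 lower, with overlapping sums. Immediate early genes, a sign of handling or activity, summed to 70.1 to 73.6 CPM in heterozygotes against 110.02 to 138 CPM in mutants, with 2 of 8 higher. The median log2 fold change of the 8 was 0.21, with 2 below 0. Most of the rise of the sum lay in the 2 called genes, Dusp1 and Jun. Dusp1 rose from 7.74 ± 2.12 to 33.99 ± 12.5 CPM (log2 fold change 1.97, SE 0.25, adjusted p = 0.000340). Jun rose from 18.9 ± 4.87 to 43.5 ± 5.61 CPM (log2 fold change 1.18, SE 0.19, adjusted p = 0.00201). The part of these cells and of handling in the results was not tested.

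Many families had no called member. Of 117 family and process lists with at least 5 tested genes, 29 had none called in limma, and of their 851 genes 8.58% had an unadjusted p under 0.05, against 12.1% of all tested genes. On those 851 genes edgeR made 3 calls, DESeq2 7 and the fit with the replicate block 31. Cytosolic ribosomal proteins had none of 82 called, none at an unadjusted p under 0.05 and none by edgeR, DESeq2 or the replicate block, with a median of 0.0018. Collagens had none of 42 called, 2 at an unadjusted p under 0.05 and none by edgeR, DESeq2 or the replicate block, with a median of -0.02. Among nuclear receptors, none of 35 was called, 4 had an unadjusted p under 0.05, edgeR and DESeq2 called none, and the fit with the replicate block called 2. The chromatin enzymes that include known partners of GFI1 had none of 14 called, 1 at an unadjusted p under 0.05, none by edgeR, 1 by DESeq2 and 1 with the replicate block.

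**Figure D5:**
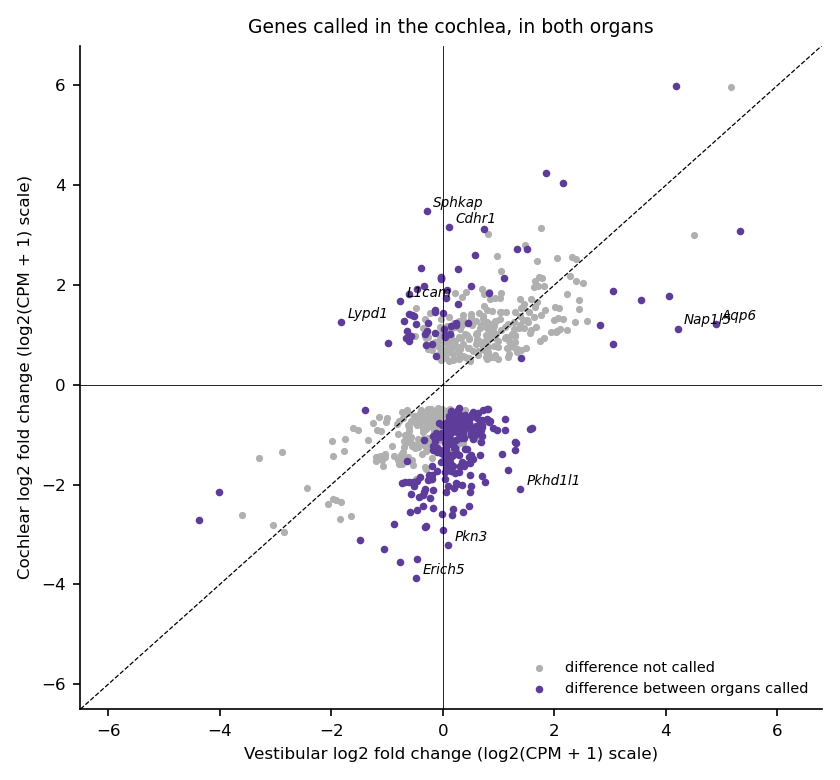
Log2 fold change of the 742 genes called in the cochlea and tested in both organs, vestibular change on the x axis and cochlear change on the y axis, with a dashed line of equal change. Purple points are the 284 genes whose difference between organs was called and grey points the others. The 9 genes with a name are among the largest differences in each direction of called genes.

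The cochlear changes were set beside those of the vestibule to show where they differ. Over the 14674 genes tested in both organs, the difference between the changes was called for 461 (3.14%), with 104 positive (0.709%) and 357 negative (2.43%). With the replicate block it was called for 1955 (13.3%), 1012 of them positive (6.90%) and 943 negative (6.43%), so that the excess of negative differences was not there in that fit. Of 742 cochlear calls tested in both organs, 284 had a called difference. These genes were chosen for their cochlear change, which the difference also contains, so this count is a description. The cochlear libraries were made with the NuGEN Ovation Ultralow kit and the vestibular ones with the NEBNext Ultra Directional kit, so that organ and kit cannot be told apart. Pkhd1l1, a large stereocilia coat protein (chromosome 15, 44457494 to 44601369, plus strand), was at 615, 323 and 510.3 CPM in heterozygotes against 95.9, 91.6 and 147 CPM in mutants (log2 fold change -2.09, SE 0.22, adjusted p = 7.75e-05) and had a vestibular change of 1.39 with a difference of -3.48, adjusted p = 0.000216. Pkn3, a protein kinase, was at 35.6, 28.4 and 31.9 CPM in heterozygotes against 2.37, 3.23 and 2.08 CPM in mutants (log2 fold change -3.22, SE 0.22, adjusted p = 2.15e-06), with a vestibular change of 0.10 and a difference of -3.31, adjusted p = 2.39e-05. The groups did not overlap in the cochlea for these 2 genes. The vestibular change of Pkn3 was smaller than its SE (0.22) and was not called (limma adjusted p = 0.895). Sphkap, a kinase anchor gene (chromosome 1, 83254139 to 83408200, minus strand), rose from 1.52, 3.05 and 2.03 CPM to 23.9, 44.7 and 37.5 CPM in the cochlea (log2 fold change 3.49, SE 0.27, adjusted p = 5.14e-06), and its vestibular change was -0.28 (3.77, adjusted p = 0.000284 for the difference). Lypd1 rose from 19.3 ± 2.93 to 47.8 ± 10.4 CPM in the cochlea (log2 fold change 1.25, SE 0.18, adjusted p = 0.000928) with a vestibular change of -1.83, and L1cam, a neuronal adhesion protein gene, was at 16.4 ± 7.44 CPM in heterozygotes against 53.3 ± 21.1 CPM in mutants (log2 fold change 1.68, SE 0.33, adjusted p = 0.00789). When mutant library 2 was left out, the call was lost (adjusted p up to 0.0655).

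Further large or abundant changes follow, whatever list their genes were in. Ldb3, a Z-disc protein known from muscle (chromosome 14, 34526603 to 34588682, minus strand), was at 19.4, 30.9 and 29.4 CPM in heterozygotes against 1.87, 3.61 and 3.59 CPM in mutants (log2 fold change -2.78, SE 0.26, adjusted p = 2.58e-05). Fcrlb, a relative of Fc receptors, fell from 29.3 ± 12.7 to 4.65 ± 1.75 CPM (log2 fold change -2.38, SE 0.30, adjusted p = 0.000268). Slc14a1, a urea transporter, fell from 76.5 ± 7.85 to 16.9 ± 0.877 CPM (log2 fold change -2.11, SE 0.15, adjusted p = 2.15e-06). Prph2, a photoreceptor membrane protein, fell from 7.14 ± 1.58 to 0.826 ± 0.276 CPM (log2 fold change -2.15, SE 0.26, adjusted p = 0.000225). Faim2, an inhibitor of Fas-induced cell death, fell from 87.5 ± 12.2 to 14.1 ± 6.08 CPM (log2 fold change -2.61, SE 0.23, adjusted p = 1.64e-05). Akap5, which anchors protein kinase A, rose from 12.6 ± 2.84 to 78.3 ± 3.02 CPM (log2 fold change 2.57, SE 0.18, adjusted p = 2.15e-06). Gng3, a G protein gamma subunit of neurons, rose from 13.8 ± 0.476 to 59.99 ± 22.2 CPM (log2 fold change 1.99, SE 0.21, adjusted p = 8.27e-05). Map1b, a microtubule protein of growing axons and one of the most abundant called genes, was at 1093 ± 229 CPM in heterozygotes against 2485 ± 868 CPM in mutants (log2 fold change 1.15, SE 0.23, adjusted p = 0.00884). This call was lost when heterozygote library 1 was left out (adjusted p up to 0.0677).

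Called genes were also placed on GRCm38 with GENCODE M21. Among tested genes that are next to each other on a chromosome, 53 pairs were called in the same direction (22 higher, 31 lower) and 25 in opposite directions. The same-direction pairs included overlapping genes and genes up to 954128 bases apart. The number of all neighbouring pairs is not given here, so these counts have no background beside them. The longest run had 5 neighbours on chromosome 19 that all fell, Ccdc87 (from 6.41 ± 1.13 to 1.73 ± 0.457 CPM, log2 fold change -1.44, SE 0.26, adjusted p = 0.00390), Ctsf (-1.03, adjusted p = 0.000640), Actn3 (-1.81, adjusted p = 0.000517), Zdhhc24 (-0.65, adjusted p = 0.0239) and Bbs1 (-0.62, adjusted p = 0.00689), named after their values were seen. The call of Zdhhc24 was lost when heterozygote library 1 or 3 or mutant library 1 or 2 was left out (adjusted p up to 0.116) and that of Bbs1 when mutant library 1 was left out (adjusted p up to 0.0506). This run spans 4839366 to 4906628, and Bbs1 encodes a subunit of the complex that sorts proteins into cilia. From Ctsf to Bbs1 the gaps are 297, 758 and 1480 bases. Whether reads of a gene in this run were counted for its neighbour was not tested. Within 1 Mb on each side of Gfi1, a window chosen after the data were seen, 3 of 36 tested genes rose and 1 fell (11.1% called, against 4.41% of all). Gm26692, a predicted gene downstream of Gfi1 on the same strand (chromosome 5, 107659461 to 107688010, minus strand), was at 2.29, 1.99 and 2.46 CPM in heterozygotes against 19.6, 26.97 and 18.99 CPM in mutants (log2 fold change 2.80, SE 0.23, adjusted p = 8.50e-06). Within 10 Mb on each side 5 of 220 rose and 6 fell (5%).

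Promoters of called genes were searched for the known core of GFI1 sites. RefSeq promoter sequences (GRCm38.p6) were matched by symbol for 11892 of the tested genes, and the 250 bases before the transcript start were searched on both strands for the core AATCAC and for the E-boxes CAGCTG and CAGATG. The GFI1 core was in 9.82% of promoters of higher genes, in 8.22% of those of lower genes and in 7.84% of all tested ones. CAGCTG was in 16.56%, 15.53% and 12.54% of them, and CAGATG in 12.88%, 8.45% and 10.29%. In a window of 100 bases AATCAC was in 5.83%, 2.97% and 3.16%. The shares are a description with no test, and a match is not a binding site. Shown here are the windows of the 2 genes with the largest rise and the 1 with the largest fall among the named genes that hold AATCAC, with the match in capitals (here its reverse complement, GTGATT), to show where the core lies. All 3 have a single match, 77, 134 and 240 bases before the start. Slc10a4, a vesicular carrier gene of neurons, lies at chr5:73006654-73006903 (plus strand), Six3 at chr17:85620584-85620833 (plus strand) and Pgam2 at chr11:5803797-5804046 (minus strand).
Slc10a4: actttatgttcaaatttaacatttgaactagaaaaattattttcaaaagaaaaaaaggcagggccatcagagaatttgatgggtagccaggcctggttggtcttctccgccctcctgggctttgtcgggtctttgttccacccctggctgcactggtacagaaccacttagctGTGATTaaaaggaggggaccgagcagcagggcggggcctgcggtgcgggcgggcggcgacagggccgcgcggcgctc
Six3: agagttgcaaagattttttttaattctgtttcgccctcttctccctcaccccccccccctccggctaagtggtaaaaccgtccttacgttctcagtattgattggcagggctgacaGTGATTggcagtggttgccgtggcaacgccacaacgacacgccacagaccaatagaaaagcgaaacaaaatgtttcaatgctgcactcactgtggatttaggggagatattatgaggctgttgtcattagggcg
Pgam2: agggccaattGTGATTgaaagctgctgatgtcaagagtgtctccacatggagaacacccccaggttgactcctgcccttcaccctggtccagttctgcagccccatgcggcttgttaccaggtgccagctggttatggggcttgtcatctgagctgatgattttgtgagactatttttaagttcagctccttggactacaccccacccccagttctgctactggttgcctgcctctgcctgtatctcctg
Slc10a4 was at 1.14, 1.86 and 0.641 CPM in heterozygotes against 13.9, 27.4 and 19.3 CPM in mutants (log2 fold change 3.25, SE 0.30, adjusted p = 1.98e-05).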

How the data were processed

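The authors deposited CPM, 1 table per library, scaled to each library's total. TopHat and GRCm38 are named in the submitters' processing notes. Tool and strand setting of the counting, and its annotation, are not given in the sources used here. Whole reads were recovered, since 100% of values were whole multiples of that of 1 read (tolerance 1e-06). Totals were 7531518 to 9363796 reads, of which 0.184% to 0.2115% lay outside the listed genes.

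Genes that reached 1 CPM in 3 or more of the 6 cochlear libraries entered limma-trend (limma 3.58.1, R 4.3.3) as log2(CPM + 1), with no block for the replicate number, two-sided, with Benjamini-Hochberg adjustment over all 17985 genes. Organs were compared by an interaction term over the 12 libraries and 14674 genes. edgeR 4.0.16 called 813 genes on the recovered reads. Replicate numbers were checked as pairs. Deviations from the group mean correlated at 0.226, 0.226 and 0.420 across genes for libraries of the same number and at -0.240 to 0.0127 otherwise. The numbers thus behaved as pairs. The main fit did not use this pairing, and its calls, SE and adjusted p are those given except where the replicate block is named. On data simulated for this comparison (17679 genes), limma called 79 of 100 genes changed by 1 log2 unit, 100 of 100 changed by 2, and 10 of 17479 unchanged ones. The changed genes were drawn only from genes well above the 1 CPM filter, and the simulated libraries had no replicate effect. Recovery of changes in low genes or in paired libraries was thus not covered.

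The members, 140 gene lists (families by symbol pattern, processes and cell markers) and tests were chosen with earlier results of these data known, and a few list patterns were trimmed of symbols that name other genes after the matches were listed. Lists are described by counts and medians, with no test. Genes were named by rule, namely the 40 largest rises and falls without overlap between groups and without predicted genes, the 15 most abundant called genes, up to 6 called members of a list described at length and up to 2 of any other, and the 5 largest differences between organs in each direction. The text describes a part of these, and some items are not reported here. A gene is uncertain where over 30% of its exon bases are shared (GENCODE M21). Alternatives were other pseudocounts, filters, scalings and tools, the replicate block and left-out libraries. Figures were drawn with matplotlib 3.10.9.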

Additional observations from a re-analysis of the deposited data

Results flagged for a closer look

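Each of the following genes was called in the cochlea and had a genotype change that differed between cochlea and vestibule by the interaction term (limma, Benjamini-Hochberg adjusted p under 0.05), and they are among the 5 largest differences in each direction. The difference is the cochlear minus the vestibular log2 fold change. It was positive for Sphkap (3.77), Lypd1 (3.08), Cdhr1 (3.05) and L1cam (2.45). It was negative for Aqp6 (-3.68), Pkhd1l1 (-3.48), Erich5 (-3.40), Pkn3 (-3.31) and Nap1l5 (-3.09). Aqp6 and Nap1l5 rose in the cochlea by log2 fold changes of 1.22 and 1.13 and had vestibular changes of 4.89 and 4.21, so that their negative values came from the larger vestibular rise. Organ and library kit cannot be told apart in these differences. L1cam lost its cochlear call when mutant library 2 was left out, and Nap1l5 when heterozygote or mutant library 1 or 2 was left out (highest limma adjusted p = 0.0655 and 0.151). The cochlear filter left Erich5 untested without any one heterozygote, and Aqp6 without any one mutant.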

How the results depend on the processing

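The 794 cochlear calls became 1532 with the replicate block (757 higher and 775 lower) and 1397 in edgeR with the replicate block, and the 461 differences between organs became 1955 with the replicate block. The block changed no call of the 323 named genes, but these were chosen from the called genes, apart from Rpl22. All 794 calls were also called with the block, so this outcome followed from the choice. Calb2, named outside that rule, was called lower with the block but not in the main fit. The other fits gave 680 cochlear calls (no filter) to 955 (DESeq2), within 1.5 times the 794. Leaving out 1 library at a time gave 530 to 777 cochlear calls, with the lowest counts without heterozygote replicate 1 (530) and mutant replicate 2 (533). The differences between organs ranged from 300 to 449, with 300 without vestibule heterozygote replicate 2. Named genes kept direction and side of the threshold for 309 of 323 in edgeR, 316 in DESeq2 and 291 without a filter, and for 245 to 294 of 310 with 1 cochlear library left out.

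Rpl22, not called in any fit, turned from slightly above to below 0 in DESeq2 (-0.0473), edgeR (-0.0541), edgeR with the block (-0.0549), median-of-ratios rescaling (-0.0448), quantile normalization (-0.0402), and without heterozygote replicate 2 (-0.065) or mutant replicate 1 (-0.0456), with -0.065 to 0.0729 over the fits that left out 1 library. The cause was not tested. With 3 libraries a group and 7531518 to 9363796 reads each, a gene that was not called may still have changed, above all at low levels, where 1 read is worth 0.107 to 0.133 CPM.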

Other observations

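Protein-coding genes that were called had a longer median genomic span than those that were not. The median span from start to end in GENCODE M21 was 45.6 kb for higher genes, 40.8 kb for lower genes and 25.7 kb for genes that were not called. Of 991 processed pseudogenes tested, 3 were higher and 3 lower, and of 420 long intergenic non-coding RNAs 3 were higher and 5 lower. None of these values was tested against other genes.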
